A study of Mus musculus with 65 samples.

Results

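The sequences left by repair of Cas9 cuts at 4 sites of Lats1 and Lats2 in mouse hepatocytes were compared between an arm labelled PTG and an arm labelled coinjection. The 16 libraries compared, of 65 in the series, are those titled PTG or coinjection at 2 and 3 weeks post injection (wpi), 8 from either arm, matched by site (Lats1-sg1, Lats1-sg2, Lats2-sg1, Lats2-sg2) and time. All groups, controls included, are hepatocytes from liver of Rosa-LSL-Cas9-EGFP mice, in which a Cre-dependent cassette at the Rosa locus encodes Cas9 and EGFP, after retro-orbital injection of adeno-associated virus (AAV). The AAV of both arms carried sgRNAs, and that of the control libraries (EV, 1 per site at 2 wpi) an empty sgRNA. PTG is not spelled out in the labels; the field commonly uses this name for a polycistronic tRNA-gRNA array. Nor do the labels say which sgRNAs were injected together, the age of the mice, what expressed Cre or how many animals stand behind a library. Cell identity cannot be checked in amplicon reads, so reads from other liver cells in a sample cannot be told apart from hepatocyte reads.

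LATS1 and LATS2 are kinases of the Hippo pathway, which phosphorylate the transcriptional co-activators YAP and TAZ and so keep them out of the nucleus. In liver this pathway restrains hepatocyte growth and size of the organ. A Cas9 break is repaired mainly by end joining, which leaves short insertions and deletions (indels); a 1 bp insertion at the cut usually copies a base next to it. Longer deletions often join at short repeats on both sides of the break, called microhomology. An indel whose net length is not a multiple of 3 shifts the reading frame of a coding exon. Lats1 lies on chromosome 10 (7681200 to 7716461) and Lats2 on chromosome 14 (57689662 to 57746212), by RefSeq's annotation of the mouse assembly GRCm38.p6 (mm10). The files used here give junction positions on an amplicon template but neither guide nor amplicon sequences, so the cuts are not placed in exons.

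The 16 libraries held 212539 reads, between 2879 and 27974 each, of which 59445 were indel reads (446 to 9310 per library). All shares below are of indel reads unless said otherwise, so the total share of edited reads, which differed between the arms, does not enter them directly. Every arm had 1 library for a site and time. Shares carry exact (Clopper-Pearson) 95% intervals and differences carry Newcombe's. With no molecular identifiers reads can be copies of one molecule, so these intervals describe counting error alone. Fisher's exact tests were two-sided and compare 2 libraries, not 2 conditions. The change from 2 to 3 wpi within an arm, which includes any difference between animals, was the only measure of spread between libraries. The EV libraries held 9, 4, 21 and 19 indel reads at the 4 sites in the order above, a level that would make up between 0.135% and 1.72% of the indel reads of the libraries compared (highest in PTG at Lats2-sg2, 2 wpi).

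An allele was defined by the bases lost on the lower and on the higher side of the cut, as counted on the template, and by the bases inserted or shared at the junction. Inserted bases are counted, not read, so insertions of one length at one place are 1 allele here. In 8 of 8 comparisons both arms had the same leading allele, and between 3 and 5 of the 5 most frequent alleles were shared. The spectra were not identical, however. The distance between them, defined as the share of reads that would have to be moved to turn one set of allele shares into the other, averaged 0.206 between PTG and coinjection at the same time (0.103 to 0.387, n = 8). Between 2 and 3 wpi it averaged 0.232 within PTG (0.0903 to 0.359, n = 4) and 0.199 within coinjection (0.127 to 0.314, n = 4). The arms thus differed by about as much as the libraries of either arm at different times. Reads of the sequencer's 2 tiles, taken from the same library, gave a median distance of 0.0571 (0.0297 to 0.177, n = 16).

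**Figure D1:**
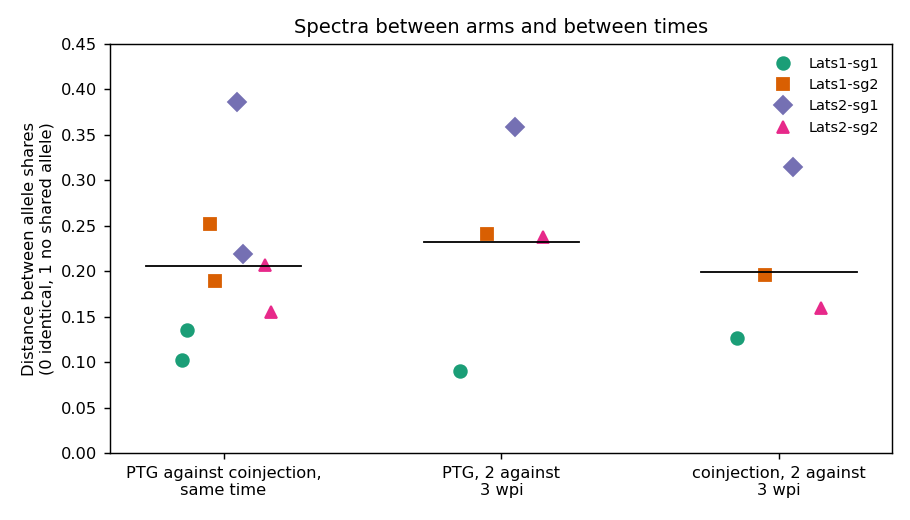
Distance between the allele shares of 2 libraries (0, identical; 1, no allele in common) for PTG against coinjection at the same time and for 2 against 3 wpi within an arm; points are pairs of libraries, coloured by site, and lines are means. The means of 0.206, 0.232 and 0.199 lie close together, and Lats2-sg1 holds the highest distance in every column.

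Of 169 tests of an allele with 20 or more reads in a comparison, 108 (63.9%) passed Fisher's exact test with Benjamini-Hochberg adjustment, 37 (21.9%) higher and 71 (42%) lower in PTG. The same test between 2 and 3 wpi called 93 of 115 alleles (80.9%) within coinjection and 40 of 52 (76.9%) within PTG, so calls between the arms were not more frequent than calls between times of 1 arm, although the alleles tested and their depths differ. Calls were unevenly spread. At 2 and 3 wpi they were 27.8% and 8.33% of the alleles tested at Lats1-sg1 (18 and 12 alleles) and 50% and 9.09% at Lats1-sg2 (10 and 11 alleles). At the Lats2 sites they were 75.7% and 89.6% at Lats2-sg1 (37 and 48 alleles) and 78.6% and 73.7% at Lats2-sg2 (14 and 19 alleles). Calls between 2 and 3 wpi were spread in the same way. Within coinjection they were 33.3% and 56.2% at Lats1-sg1 and Lats1-sg2, against 95.1% and 91.3% at Lats2-sg1 and Lats2-sg2. Within PTG they were 46.2% and 40% against 95.2% and 92.3%. Of 46 alleles tested at both times, 23 differed between the arms in the same direction at 2 and 3 wpi. Of the 18 that passed at both times, 12 kept their direction (5 higher and 7 lower in PTG) and 6 turned.

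The 19 leading alleles (among the 3 most frequent of any library of their site, with at least 1% of its indel reads) gave 38 comparisons, of which 23 passed, 12 higher and 11 lower in PTG. In 8 of these 23 the difference between the arms was larger than the change from 2 to 3 wpi in either arm. Passing at both times in 1 direction was found for 5 alleles, which are described site by site below with the other leading alleles.

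At Lats1-sg1 the 1 bp insertion at the cut, the leading allele in every library, was higher in PTG at both times. It made up 75.7% (74.5 to 76.8) of indel reads in PTG against 72.6% (71.4 to 73.8) in coinjection at 2 wpi, and 79.2% (77.8 to 80.6) against 70.3% (68.5 to 72.04) at 3 wpi. The differences were 3.07 points (1.41 to 4.73; Fisher's exact test with adjusted p = 7.11e-04) and 8.97 points (6.74 to 11.2; adjusted p = 2.56e-14), and the second exceeded the change between times in PTG (3.58 points) and in coinjection (-2.32 points). The 1 bp deletion that loses 2 bp on the lower side and gains 1 was lower in PTG at 2 wpi, with 1.88% against 3.10% (Fisher's exact test, adjusted p = 1.73e-04), and at 3 wpi stood at 1.83% against 2.12% (adjusted p = 0.505). The 2 bp deletions of the lower side, clean or with 1 inserted base, ran from 1.92% to 4.47% over the 4 libraries and did not pass in any comparison.

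At Lats1-sg2 the leading allele was a clean 2 bp deletion on the lower side. It held 60.0% (56.2 to 63.8) in PTG against 49.2% (46.9 to 51.5) in coinjection at 2 wpi, and 48.4% (43.7 to 53.2) against 51.1% (48.96 to 53.2) at 3 wpi. The difference of 10.8 points at 2 wpi (6.43 to 15.2; Fisher's exact test with adjusted p = 7.12e-06) was smaller than the change of PTG itself between times (-11.6 points), and at 3 wpi the difference was -2.64 points (-7.70 to 2.44; adjusted p = 0.377). The PTG libraries of this site were the shallowest, with 665 and 446 indel reads. Another 2 alleles were lower in PTG at 2 wpi only by the test. They were the 3 bp deletion with 2 bp of microhomology, at 5.56% against 9.68% (Fisher's exact test, adjusted p = 0.00195), and the clean 1 bp deletion, at 2.26% against 6.09% (adjusted p = 1.36e-04). At 3 wpi PTG held 6.95% against 5.21% and 6.73% against 5.34% of these alleles, neither past the threshold. The 1 bp insertion was at 11.6% against 9.35% at 2 wpi and 15.2% against 11.6% at 3 wpi, with adjusted p of 0.147 and 0.0597 in Fisher's exact test.

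At Lats2-sg1, where the leading allele held the smallest share of the 4 sites in coinjection, the 1 bp insertion was again higher in PTG at both times. The shares were 40.7% (37.9 to 43.6) against 31.9% (30.97 to 32.9) at 2 wpi and 42.3% (40.5 to 44.2) against 37.2% (36.2 to 38.1) at 3 wpi, differences of 8.80 points (5.89 to 11.8; Fisher's exact test with adjusted p = 1.57e-08) and 5.18 points (3.10 to 7.27; adjusted p = 4.89e-06). Coinjection itself changed by 5.22 points between times, about as much as the second of these. The mirror-image 2 bp deletions moved apart, the clean 2 bp deletion of the higher side being higher in PTG and that of the lower side lower, at both times. On the higher side PTG held 11.6% against 7.40% at 2 wpi and 14.4% against 11.1% at 3 wpi, with adjusted p of 8.84e-06 and 2.58e-05 in Fisher's exact test. On the lower side it held 1.16% against 4.01% and 8.68% against 11.3%, with adjusted p of 1.90e-07 and 1.56e-04. The lower-side deletion also rose between times in both arms, by 7.51 points in PTG and 7.32 in coinjection, more than the arms stood apart at either time.

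The 1 bp deletions of Lats2-sg1 did not keep their order. The clean loss of 1 bp on the higher side was lower in PTG at 2 wpi (3.41% against 9.55%; Fisher's exact test with adjusted p = 8.21e-14) and higher at 3 wpi (9.04% against 6.55%; adjusted p = 4.61e-05). The form with 2 bp lost and 1 inserted on that side was at 11.1% against 3.15% at 2 wpi (Fisher's exact test, adjusted p = 3.44e-28) and at 1.70% against 1.60% at 3 wpi (adjusted p = 0.778). The clean loss of 1 bp on the lower side was at 8.06% against 9.71% at 2 wpi (Fisher's exact test, adjusted p = 0.108) and lower in PTG at 3 wpi, with 2.31% against 3.85% (adjusted p = 1.94e-04). Of 19 alleles tested at both times at this site, 12 passed at both. Lower in PTG at both times were 6 of these 12, 1 of them a leading allele. Another 2 were higher at both times, both leading alleles, and 4 turned. Among the lower ones, the clean 3 bp deletion of the lower side held 0.249% against 2.05% and then 0.145% against 1.26%.

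At Lats2-sg2 the 1 bp insertion led in every library as well, and here it was lower in PTG. It made up 60.6% (57.8 to 63.4) against 72.8% (71.7 to 73.97) at 2 wpi, a difference of -12.2 points (-15.2 to -9.29; Fisher's exact test with adjusted p = 1.18e-15) that exceeded the change between times in PTG (9.63 points) and in coinjection (0.307 points). At 3 wpi it was 70.2% (68.3 to 72.1) against 73.1% (71.99 to 74.3), a difference of -2.91 points (-5.09 to -0.775; Fisher's exact test with adjusted p = 0.014), which was no longer past the threshold in either tile alone. By 6 wpi, for which no coinjection library was analysed here, the PTG library stood at 74.9%. None of the other 4 leading alleles differed in 1 direction at both times by the test. Outside the leading alleles of this site, 2 were higher in PTG at both times, picked here for passing. The 2 bp insertion held 5.85% against 3.74% and then 1.82% against 0.987% (Fisher's exact test with adjusted p of 0.00286 and 0.00538), and the 1 bp deletion with 3 bp lost on the higher side and 2 inserted held 4.86% against 0.707% and then 1.23% against 0.352% (adjusted p of 1.10e-19 and 3.94e-05). The 1 bp deletion with 2 bp lost on the higher side and 1 inserted was 4.82 times as frequent in PTG at 3 wpi (9.36% against 1.94%; Fisher's exact test with adjusted p = 9.94e-46) but stood at 6.18% against 5.49% at 2 wpi (adjusted p = 0.39). The 3 bp deletion with 2 bp of microhomology was higher in PTG at 2 wpi (3.96% against 0.776%) and lower at 3 wpi (1.69% against 3.63%). The clean 1 bp deletion of the higher side was seen in 0 of 1213 indel reads of PTG at 2 wpi, against 1.28%. Those 0 reads allow a share of up to 0.304%. At 3 wpi this deletion held 3.85% against 1.49%. All 4 of these comparisons passed Fisher's exact test, with adjusted p of 2.84e-13, 6.84e-06, 6.19e-06 and 1.96e-09.

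**Figure D2:**
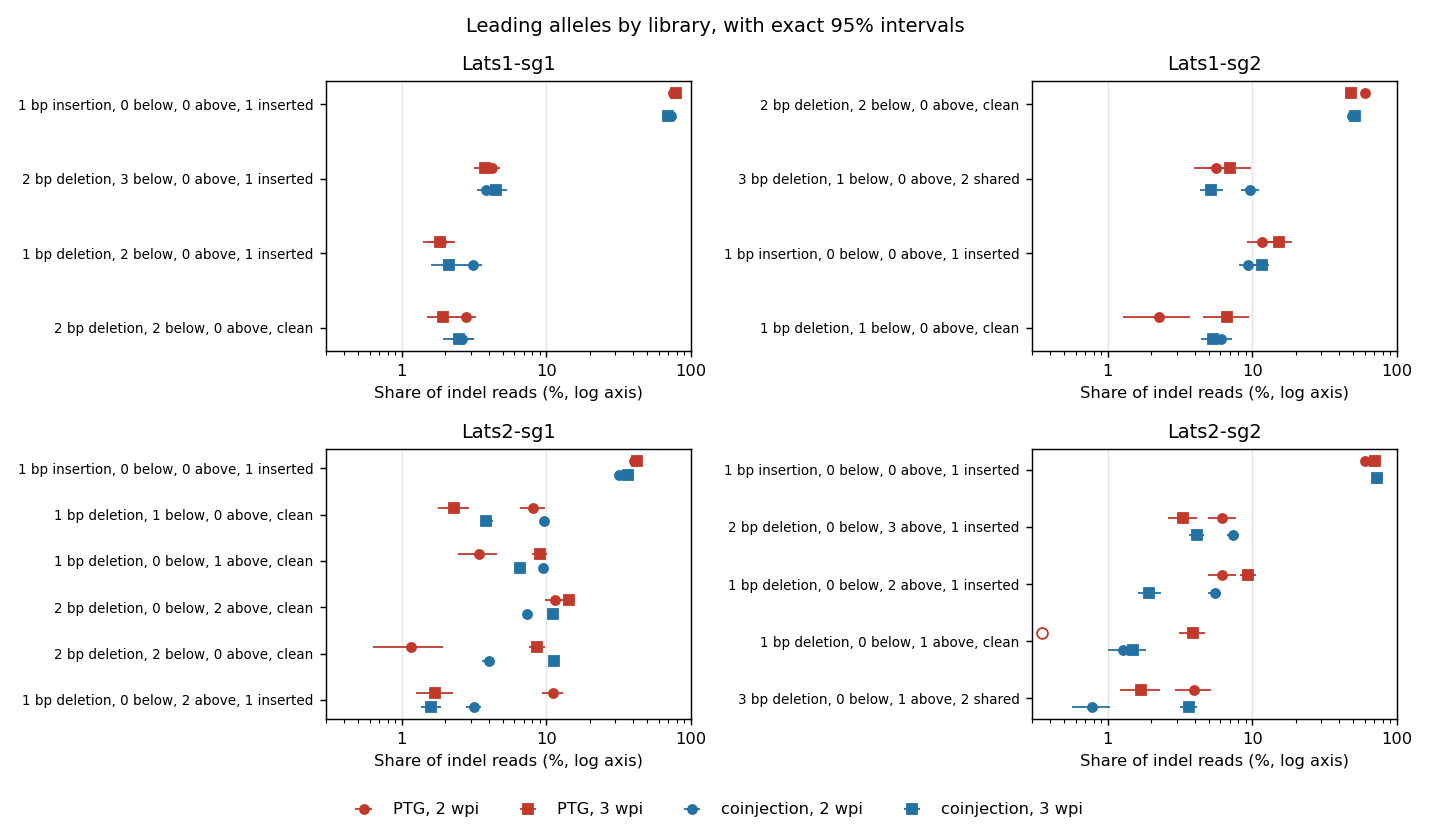
Share of indel reads (log axis) held by the 19 leading alleles, in 4 panels by site; labels give net length, bp lost below and above the cut, and bases inserted or shared. Points are libraries with exact 95% intervals (PTG red, coinjection blue; circles 2 wpi, squares 3 wpi), and the open circle marks 0 reads; the 1 bp insertion is further right in PTG at Lats1-sg1 and Lats2-sg1 and further left at Lats2-sg2.

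By net length, indel reads were set into 7 classes, and 35 of 56 class comparisons (62.5%) passed Fisher's exact test with adjustment over all 56, 14 higher (25%) and 21 lower (37.5%) in PTG. In 18 of 56, passed or not, the arms differed by more than either arm changed between times. The class of 1 bp insertions followed the leading allele, with 6 of 8 comparisons past the threshold, 4 higher and 2 lower in PTG, and a mean difference over sites of 1.89 ± 6.63 points (SD, n = 4 sites). Deletions of 2 to 9 bp ranged from -7.56 to 3.81 points and deletions of 1 bp from -3.78 to 10.5 points, with sites on both sides of 0 in each. Insertions of 2 to 19 bp were higher in PTG in the 3 comparisons that passed and lower in the other 5.

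**Figure D3:**
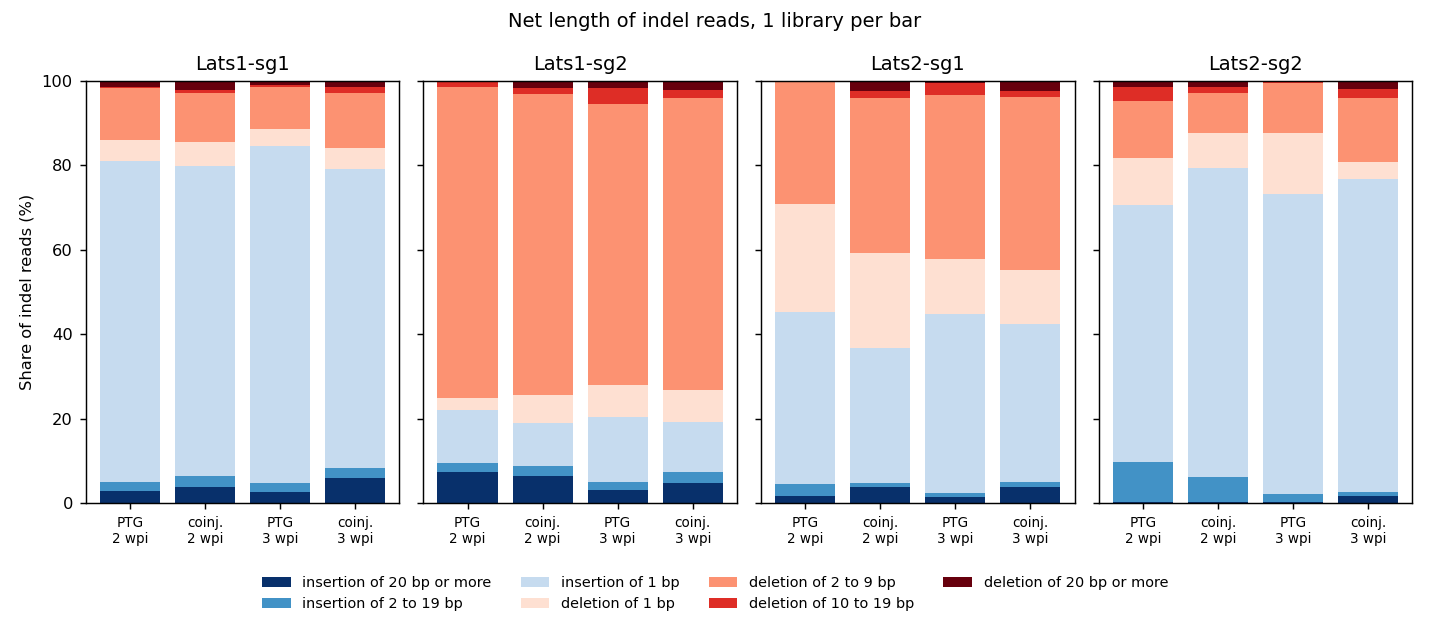
Share of indel reads in 7 classes of net length, stacked to 100%, 1 bar per library in panels by site. Bars of 1 site resemble each other in both arms, with 1 bp insertions (light blue) as the main class at Lats1-sg1 and Lats2-sg2 and deletions of 2 to 9 bp (orange) at Lats1-sg2.

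The class that stood lower in PTG in all 8 comparisons was that of deletions of 20 bp or more, singled out after the values were seen. At Lats1-sg1 it held 1.40% (76 reads) in PTG against 2.08% (109 reads) in coinjection at 2 wpi and 1.02% (35) against 1.45% (37) at 3 wpi. At Lats1-sg2 it held 0.150% (1 read) against 1.63% (30) and 1.57% (7) against 2.15% (47). The gap was wide at Lats2-sg1, with 0.0831% (1 read) against 2.32% (209) at 2 wpi and 0.362% (10) against 2.27% (211) at 3 wpi. At Lats2-sg2 the shares at 2 wpi were 1.48% (18 reads) against 1.52% (88), a difference of -0.0341 points with an interval of -0.680 to 0.862. At 3 wpi PTG held 0 of 2361 indel reads, which allows a share of up to 0.156%, against 1.82% (109 reads). The 8 PTG libraries thus lay between 0 and 1.57% and the 8 coinjection libraries between 1.45% and 2.32%.

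Of these 8 differences 5 passed Fisher's exact test, with differences of -0.672, -1.48, -2.23, -1.90 and -1.82 points, and none of the 8 was higher in PTG. Averaged over times the difference was -1.14 ± 0.650 points (SD, n = 4 sites) and negative at 4 of 4 sites. The exact sign-flip test over sites, two-sided, gave p = 0.125, the smallest that 4 sites allow. Both follow from singling out a class that was lower in all 8 comparisons and are no further support. The sites may also share animals, so they are not known to be independent. In 5 of 8 comparisons the difference exceeded the change between times in either arm. Few alleles stood behind some of these values, since the 18 reads of Lats2-sg2 at 2 wpi and the 10 of Lats2-sg1 at 3 wpi in PTG were 1 allele each, whereas a coinjection library held between 5 and 28 such alleles. Counted as distinct alleles, the class was lower in PTG in 8 of 8 comparisons, but only 1 of these passed. As a share of all reads, or of indels over 1 bp, it was lower in 7 of 8, the exception being Lats1-sg1 at 3 wpi (0.649% against 0.590% and 6.34% against 6.02%). The low level did not last in the PTG arm, where at 6 wpi the class held 0.955%, 4.66%, 5.67% and 2.76% at the 4 sites, above both coinjection libraries at each site but Lats1-sg1.

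**Figure D4:**
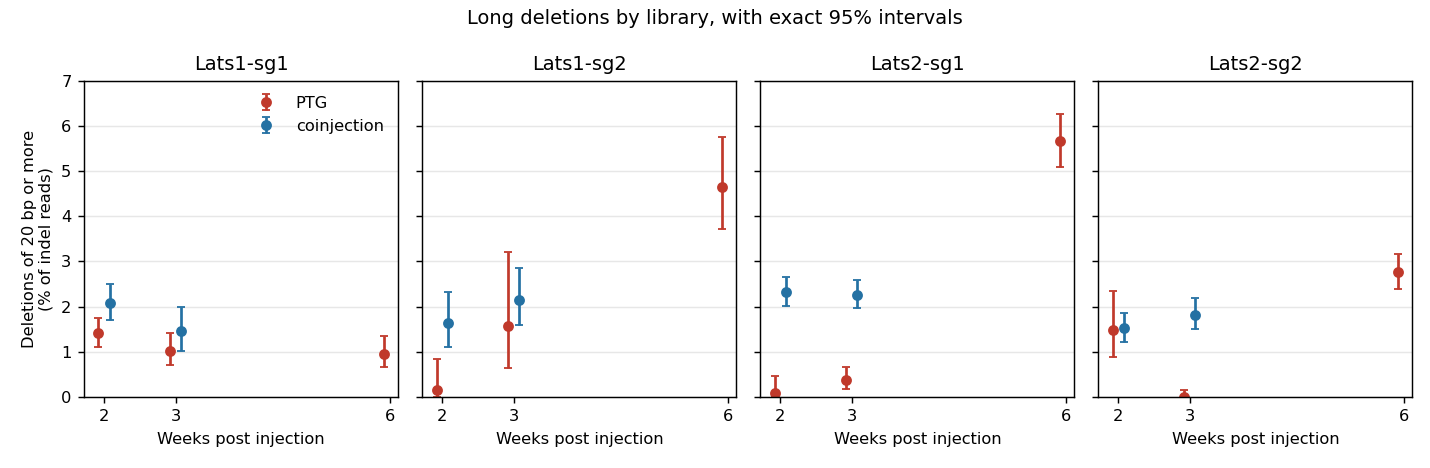
Deletions of 20 bp or more as a share of indel reads, by weeks post injection, 1 panel per site; points are libraries (PTG red, coinjection blue) and bars exact 95% intervals. PTG lies below coinjection at 2 and 3 wpi in every panel and at 6 wpi reaches 4.66%, 5.67% and 2.76% at Lats1-sg2, Lats2-sg1 and Lats2-sg2.

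Insertions of 20 bp or more were lower in PTG in 6 of 8 comparisons, and all 5 that passed were lower. In 4 of 8 the difference exceeded the change between times in either arm. That at Lats1-sg1, 2 wpi, did not (-0.964 points, against a change of 2.09 points in coinjection). At Lats1-sg1 PTG held 2.86% against 3.83% at 2 wpi and 2.59% against 5.91% at 3 wpi, at Lats2-sg1 1.75% against 3.83% and 1.48% against 3.98%. At Lats2-sg2 it held 0.412% against 0.397%, not past the threshold, and then 0.381% against 1.74%. At Lats1-sg2 it held 7.37% against 6.47% and 3.14% against 4.89%, neither past the threshold. At Lats2-sg2 insertions of up to 162 bp were also among the 19 indel reads of EV, 4 of which were of 20 bp or more. These were 4 of 18689 reads in EV, next to 5 of 20565 in PTG and 23 of 14554 in coinjection at 2 wpi. The PTG count at 2 wpi is thus near the EV level, with no test made. Few alleles stood behind some of these values too, since the PTG reads at Lats2-sg1 (21 and 41) were 1 and 2 alleles against 21 and 29 in coinjection. As a share of distinct alleles the class was higher in PTG at Lats1-sg1, at 35.6% against 26.4% and 41.5% against 40%. The bases inserted are not in the files used here, so their source cannot be named.

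The share of indel reads that shift the frame was high in both arms, from 84.1% to 98.1%, and passed Fisher's exact test in 7 of 8 comparisons, 6 higher and 1 lower in PTG. At Lats1-sg1 it was 96.3% in PTG against 94.96% in coinjection at 2 wpi and 96.2% against 94.9% at 3 wpi, differences of 1.31 points (0.538 to 2.10) and 1.21 points (0.160 to 2.30) that were larger than the change between times in either arm. They were no longer past the threshold with edges within 5 bp of the cut (0.482 and 0.388 points), and that at 3 wpi was 0.0368 points without alleles under 10 reads and -1.52 points without the most frequent allele. At Lats1-sg2 it was 90.8% against 84.6% and then 90.1% against 89.9%, at Lats2-sg1 96.8% against 84.1% and then 89.2% against 87.3%. The arms therefore stood 6.27 points (3.37 to 8.88) and 12.6 points (11.3 to 13.8) apart at 2 wpi and 0.231 points (-3.11 to 3.01) and 1.87 points (0.489 to 3.18) apart at 3 wpi, the last not past the threshold without the most frequent allele (1.43 points). At Lats2-sg2 the order turned, from 91.1% against 97.7% at 2 wpi to 98.1% against 93.7% at 3 wpi. The mean difference over sites was 2.67 ± 3.54 points (SD, n = 4 sites), with p = 0.25 in the exact sign-flip test.

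Net insertions of any length were higher in PTG in 6 of 8 comparisons and lower at Lats2-sg2 at both times. The shares at Lats1-sg1 were 81.03% against 79.9% and 84.5% against 79.3%, at Lats1-sg2 22.1% against 19.03% and 20.4% against 19.3%. At Lats2-sg1 they were 45.2% against 36.8% and 44.9% against 42.6%, and at Lats2-sg2 70.7% against 79.5% and 73.2% against 76.8%. Passing Fisher's exact test were 2 higher (5.23 points at Lats1-sg1, 3 wpi; 8.43 at Lats2-sg1, 2 wpi) and 2 lower (-8.86 and -3.58 points at Lats2-sg2), all 4 larger than the change between times in either arm. Without the most frequent allele that at Lats2-sg1, 2 wpi, was 0.429 points and not past the threshold. With sites in both directions, the mean was 1.10 ± 5.07 points (SD, n = 4 sites; exact sign-flip test, p = 0.75), and it turned negative without Lats2-sg1 (-0.316 points). With 1 bp indels left out the insertion share was lower in PTG at both times at Lats1-sg1 (-4.16 and -4.42 points), neither past the threshold.

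Among deletions of 2 bp or more, those with at least 2 bp of microhomology were the smaller share in both arms, and the 5 differences that passed Fisher's exact test, of 8, were all lower in PTG. At Lats2-sg1 the PTG libraries held 0 of 351 such deletions at 2 wpi (which allows a share of up to 1.045%) and 6 of 1163 (0.516%) at 3 wpi, against 8.84% (325 of 3676) and 4.36% (182 of 4174) in coinjection. At Lats1-sg1 the shares were 4.12% (31 of 752) against 9.16% (69 of 753) and 6.20% (24 of 387) against 7.43% (30 of 404). At Lats1-sg2 they were 8.22% against 14.6% at 2 wpi and 11.2% against 9.86% at 3 wpi. Of the 5 differences that passed, 4 were larger than the change between times in either arm. That at Lats2-sg1, 3 wpi, was not, with -3.84 points against a change of -4.48 points in coinjection.

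At Lats2-sg2 PTG was at 21.7% (48 of 221) against 15.5% (111 of 718) at 2 wpi, with an adjusted p of 0.053 in Fisher's exact test, and lower at 3 wpi, at 13.7% (40 of 291) against 27.6% (317 of 1149). The 48 and the 40 PTG reads are in each case 1 allele, the 3 bp deletion described above, whereas coinjection held 5 and 14 such alleles. The mean difference over sites was -3.94 ± 1.69 points (SD, n = 4 sites), negative at 4 of 4 sites averaged over times, with p = 0.125 in the exact sign-flip test, the smallest that 4 sites allow. With a minimum of 3 bp of microhomology the differences at Lats1-sg1 and Lats1-sg2 at 2 wpi were 0.00371 and 0.143 points and that at Lats2-sg2, 3 wpi, was -1.30 points, none past the threshold. At 6 wpi PTG held 22.8% (Lats1-sg2), 21.4% (Lats2-sg1), 46.5% (Lats2-sg2) and 4.42% (Lats1-sg1), the first 3 above both coinjection libraries of their site.

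At equal numbers of indel reads PTG held fewer distinct alleles in 7 of 8 comparisons. Numbers were set to the shallower library of a pair by the expected count of alleles in a draw without replacement, given with the SD of that draw. At Lats2-sg1 this gave 20 alleles in PTG against 44.1 ± 2.45 in coinjection for 1203 reads at 2 wpi, and 38 against 95.9 ± 3.17 for 2766 reads at 3 wpi. At Lats2-sg2 it gave 25 against 34.4 ± 2.77 for 1213 reads and 32 against 66.4 ± 2.97 for 2361 reads, although the curves of this site cross at low numbers (2.80 in PTG against 2.26 alleles in coinjection for 5 reads at 2 wpi). The gap was smaller at Lats1-sg2, with 45 against 59.9 ± 3.20 for 665 reads and 54 against 63.8 ± 4.87 for 446 reads. It was wider when a minimum of reads per allele was set before the draw. Without alleles of 1 read the ratio at 3 wpi was 0.452 in place of 0.846. Without those under 10 reads the ratios were 0.376 in place of 0.752 at 2 wpi and 0.339 at 3 wpi. The minimum acted on unequal depths, 665 and 446 indel reads in PTG against 1839 and 2189 in coinjection. The same number of reads is a larger share of the shallower library, so these ratios cannot show what rare alleles contribute.

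Lats1-sg1 went both ways, with 131.1 ± 0.942 alleles in PTG against 91 for 5253 reads at 2 wpi and 93.7 ± 3.05 against 155 for 2553 reads at 3 wpi. Without alleles under 10 reads its ratios were 0.469 in place of 1.44 and 0.923 in place of 0.605. At 3 wpi this minimum too acted on unequal depths, 3434 indel reads in PTG against 2553 in coinjection. At 2 wpi its curves cross, since for 446 reads PTG gave 40.8 ± 4.32 and coinjection 44.6 ± 3.87 alleles. The ratio of PTG to coinjection had a geometric mean of 0.657 over sites (0.464 to 0.931 for 1 SD of the log ratio, n = 4 sites), below 1 at 4 of 4 sites, with p = 0.125 in the exact sign-flip test. The site ratios were 0.933, 0.798, 0.424 and 0.592. Coinjection libraries themselves gained alleles between times, for 446 reads from 44.6 to 58.5 (Lats1-sg1), 50.8 to 63.8 (Lats1-sg2), 36.1 to 55.3 (Lats2-sg1) and 23.6 to 36.2 (Lats2-sg2).

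The share of edited reads also differed between the arms. PTG had 9.65% and 15.5% indel reads at Lats1-sg2, 5.79% and 11.8% at Lats2-sg1 and 5.90% and 16.9% at Lats2-sg2, against 33.3% to 44.9% in coinjection at these sites, while at Lats1-sg1 PTG had 55.2% and 63.7% against 50.96% and 40.7%. Edited shares and distinct alleles are set side by side below, and a link between them was not tested. At Lats1-sg1, 3 wpi, PTG had more edited reads and fewer alleles. From 2 to 3 wpi the edited share of PTG rose at 4 of 4 sites. Its alleles for 446 reads went from 40.8 to 36.4 (Lats1-sg1), 40.1 to 54 (Lats1-sg2), 17.7 to 28.25 (Lats2-sg1) and 18.4 to 18.7 (Lats2-sg2). At this depth the ratio of PTG to coinjection went from 0.914 to 0.622, 0.7895 to 0.846, 0.491 to 0.511 and 0.780 to 0.5175 at these sites. In coinjection the edited share was lower at 3 wpi at 4 of 4 sites, and the alleles for 446 reads were more at 4 of 4. A draw that equals indel reads does not equal the number of edited molecules before PCR, and the part of that number in the result was not tested. For equal numbers of all reads the ratio at 2 wpi was 0.286 at Lats2-sg1 and 0.370 at Lats2-sg2, against 0.453 and 0.726 for equal indel reads, and the mean ratio over sites was 0.494 (exact sign-flip test, p = 0.25). At 6 wpi, when the PTG libraries of these 3 sites held 24.4% to 35.5% indel reads, 446 indel reads gave 71.7 (Lats1-sg2), 57.3 (Lats2-sg1) and 30.4 alleles (Lats2-sg2), within or above the range of both coinjection libraries there.

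**Figure D5:**
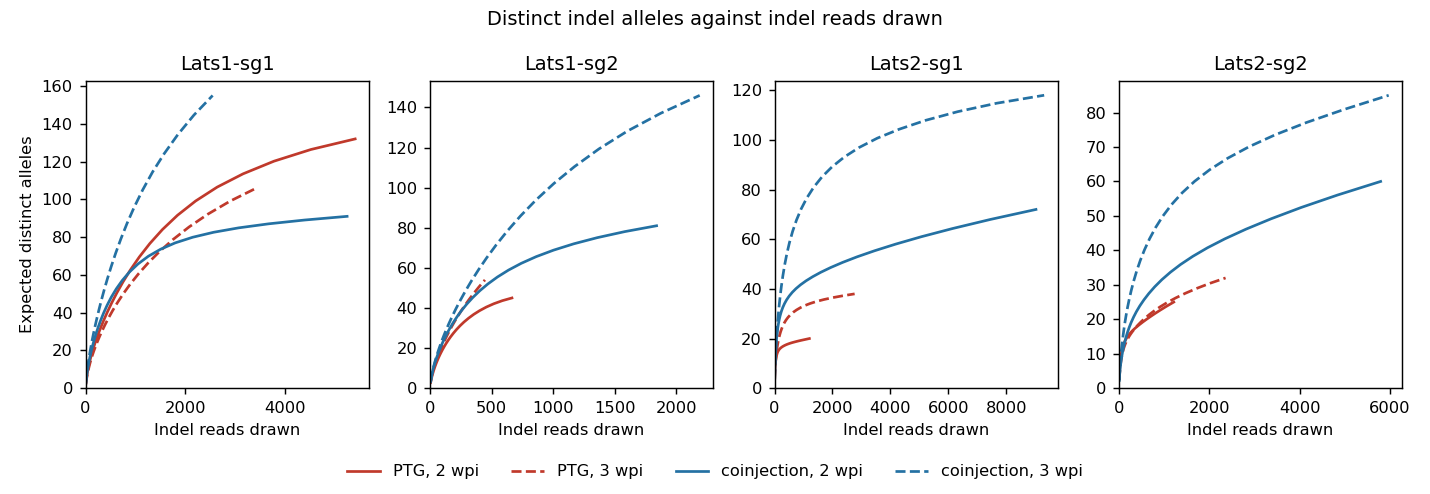
Expected number of distinct indel alleles against the number of indel reads drawn, 1 panel per site and 1 curve per library (PTG red, coinjection blue; solid 2 wpi, dashed 3 wpi). The PTG curves of Lats2-sg1 at 2 and 3 wpi lie below both coinjection curves (20 and 38 against 44.1 and 95.9 alleles), while curves of the arms cross at Lats1-sg1 at 2 wpi and at low read numbers at Lats2-sg2.

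Most reads of either arm belonged to alleles seen in both. The alleles shared within a comparison held between 89.3% and 97.4% of the PTG indel reads and between 76.0% and 93.6% of those of coinjection. By number they were 75.0% and 73.7% of PTG alleles at Lats2-sg1 at 2 and 3 wpi, against 20.8% and 23.7% of the coinjection alleles. At Lats2-sg2 they were 60% and 53.1% against 25% and 20%, and at Lats1-sg2 42.2% and 48.15% against 23.5% and 17.8%. Lats1-sg1 went both ways, with 31.1% against 45.05% at 2 wpi and 45.3% against 31.0% at 3 wpi. These numbers were not set to equal depth. The most frequent allele seen in 1 arm only was a clean 3 bp deletion of the higher side at Lats2-sg1, with 555 reads (6.15%) in coinjection at 2 wpi and none of 1203 in PTG, an allele picked here for its value; at 3 wpi both arms held it, with 5.46% in PTG and 4.55% in coinjection. In PTG it was a 5 bp deletion at the same site and time, with 58 reads (4.82%) and none of 9026 in coinjection.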

How the data were processed

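Genomic DNA of hepatocytes was amplified around each cut site and sequenced as amplicons, per the labels' protocols. Tools listed per the submitters' processing notes are Bowtie2, bcl2fastq, deepTools and R 4.2.1, with the build mm10; which of them set the junctions is not given in those notes. Each table deposited by the authors holds 1 line per read with junction positions, an indel length and a microhomology length in bp, per the file headers; these values carry no normalisation. Within each table, indel length equalled template gap minus read gap, so deletions are positive.

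A read with a net length other than 0 was an indel read. The labels gave each library its arm, target and time. Fisher's exact tests were adjusted by Benjamini-Hochberg over 169 alleles, over 56 class comparisons and over 8 comparisons for each share, at 0.05. Distinct alleles came from analytic rarefaction. Leading alleles are those among the 3 most frequent of any library of a site with at least 1% there. The members, classes and lists were chosen with earlier results of these data known. The test and rarefaction steps were tested on simulated data. Alternatives are given in the closing section; libraries of other sites were left out. Software was scipy 1.17.1, statsmodels 0.14.6, numpy 2.4.6 and pandas 2.3.3 under Python 3.11.15, with figures by matplotlib 3.10.9.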

Additional observations from a re-analysis of the deposited data

Results flagged for a closer look

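The difference between PTG and coinjection was not the same at 2 and 3 wpi in 9 of 12 combinations of measure and site, by 95% counting intervals of the change that leave out 0; they compare libraries, not animals. For the frameshift share the difference changed by -6.04 points (-10.3 to -2.02) at Lats1-sg2, by -10.8 points (-12.6 to -8.88) at Lats2-sg1 and by 10.9 points (9.15 to 12.9) at Lats2-sg2. For the insertion share it changed by 4.07 points (1.59 to 6.57) at Lats1-sg1, -6.14 points (-9.79 to -2.50) at Lats2-sg1 and 5.28 points (1.84 to 8.76) at Lats2-sg2. For the microhomology share it changed by 7.70 points (3.00 to 12.8) at Lats1-sg2, 4.997 points (3.43 to 6.27) at Lats2-sg1 and -20.1 points (-27.9 to -12.5) at Lats2-sg2.

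Reads in which bases at the cut were replaced by as many others have a net length of 0 and enter no comparison above. Their share of all reads was above that of the EV library of the same site in 5 of 16 libraries (Fisher's exact test, adjusted over 16), all 5 of coinjection. The shares were 0.537% against 0.214% in EV at Lats1-sg2, 2 wpi (Fisher's exact test, adjusted p = 0.028), 0.921% and 0.711% against 0.246% at Lats2-sg1, and 1.07% and 1.14% against 0.503% at Lats2-sg2 at 2 and 3 wpi. PTG libraries held between 0.185% and 0.551%, none above EV by the test. The arms were not tested against each other in this measure. It is a share of all reads, and the edited share differed between the arms. At Lats1-sg2, Lats2-sg1 and Lats2-sg2 indel reads were 5.79% to 16.9% in PTG against 33.3% to 44.9% in coinjection. At Lats1-sg1, where PTG had the higher edited share, no library of either arm was above EV. A link to the edited share was not tested.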

How the results depend on the processing

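Over 109 recomputed values of the main results, 93 kept their direction and their side of the threshold or stayed within 1.5 times the count. For the means over sites the sign-flip p cannot fall below 0.125. Their side of the threshold was thus fixed, and only a change of direction could count. The mean difference in insertion share turned to -3.14 points without alleles found in EV, -0.979 without 1 bp indels, -2.93 with each allele counted once, and -0.316 without Lats2-sg1; leaving out each site in turn gave -0.316 to 3.54 points. EV alleles include the 1 bp insertion, so leaving them out removes most indel reads at 3 sites. The mean distance between spectra of the arms rose to 0.457 without alleles found in EV, 0.406 without the most frequent allele and 0.395 without 1 bp indels. Distances between times within an arm were not recomputed in these settings. These values therefore cannot show whether the arms then differed by more than the times. Class comparisons past the threshold fell to 21 of all tested both with edges within 5 bp of the cut and without 1 bp indels. Part of either fall was fixed in advance. Without 1 bp indels the classes of 1 bp insertions and deletions, with 6 and 4 comparisons past the threshold before, are empty. Edges within 5 bp leave little room for deletions of 20 bp or more, of which 5 passed before. Frameshift comparisons past it fell to 4 without the most frequent allele, 4 in tile 1 only and 0 with each allele counted once (Fisher's exact test, also 0 before adjustment), where alleles rather than reads are compared. Alleles past it numbered 177 when those of 5 or more reads were tested, 39 with 100 or more, 59 in tile 1 only and 67 in tile 2 only; fewer reads or alleles were then tested. The tiles, equal total reads and the other denominators of long deletions were chosen after seeing the data.

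Of 508 values of single comparisons 435 kept their call. The following changed sign; the cause was not tested. Frameshift share at Lats1-sg1, 3 wpi: -2.01 points without alleles found in EV, -2.94 without 1 bp indels, -1.52 without the most frequent allele and -8.55 with each allele once, which at Lats2-sg2, 2 wpi, gave 5. Insertion share without alleles found in EV: -6.06 and -4.78 points at Lats1-sg1 at 2 and 3 wpi, -8.17 at Lats2-sg1 and 0.871 at Lats2-sg2 at 3 wpi. Without 1 bp indels it gave -4.42 at Lats1-sg1 and -4.65 at Lats2-sg1 at 3 wpi, and 1.54 and 2.98 at Lats2-sg2. Without the most frequent allele it gave -4.52 and -4.92 at Lats1-sg1, -4.24 at Lats2-sg1, 3 wpi, and 0.952 at Lats2-sg2, 2 wpi. With each allele once it gave -25.3 at Lats2-sg1, 2 wpi, and 1.33 and 8.86 at Lats2-sg2. With a minimum of 3 bp the microhomology difference at 2 wpi was 0.00371 at Lats1-sg1 and 0.143 at Lats1-sg2. The ratio of distinct alleles at Lats1-sg1, 2 wpi, was 0.469 without alleles under 10 reads and 0.914 at 1 depth for all comparisons. A further 28 values changed sign without passing the threshold in either setting. The arms were paired by site and time throughout; a replicate block could not be fitted, because each group holds 1 library.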

Other observations

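Among deletions of 2 bp or more, those that also gained bases at the junction varied as much between times as between arms, with no test made. At Lats2-sg1 they were 26.8% of such deletions in PTG against 7.998% in coinjection at 2 wpi and 2.24% against 6.80% at 3 wpi. At Lats2-sg2 they were 69.2% against 76.6% and then 45.4% against 41.2%, falling in both arms. At Lats1-sg1 they stayed between 41.9% and 43.8% in all 4 libraries, and at Lats1-sg2 between 1.80% and 4.32%.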
